A study of Mus musculus with 6 samples.

Results

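The secreted proteins of the epididymal duct come from a small number of gene families, and their transcripts were followed here through RNA sequencing of epididymal white fat in 6 libraries. The families are the lipocalins (Lcn, without Lcn2), beta-defensins (Defb), cysteine-rich secretory proteins (Crisp), Spag11, whey acidic protein domain inhibitors (Wfdc), cystatins (Cst), the ribonuclease A family (Rnase) and Kazal-type protease inhibitors (Spink), joined by Adam7, Adam28 and Ovch2. Members were taken by gene symbol alone, which gave 109 of the 22322 genes in the deposited table. They are 42 Defb, 18 Wfdc, 12 Spink, 10 Rnase, 9 Lcn, 9 Cst, 4 Crisp and 2 Spag11 genes, together with the 3 genes added by name. The libraries were 3 labelled CD44-KO and 3 labelled wild type, all from mice on a high fat diet for 17 weeks. Cd44 encodes a receptor on the cell surface that binds hyaluronan. The labels give no allele, strain or age and do not say in which cells Cd44 is deleted, and nothing says that the libraries of a genotype come from separate animals, so p-values measure the spread between these samples.

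The epididymis is the long duct in which sperm mature after leaving the testis, and in the mouse it lies against the epididymal fat pad. Its epithelium changes along its length, from the initial segment and caput next to the testis, through the corpus, to the cauda, and each stretch secretes its own set of proteins under the control of androgen. Many of these proteins are protease inhibitors, antimicrobial peptides or carriers of small lipids that coat the sperm. White fat is not known as a source of most of them.

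The libraries held 15543317 to 18765009 expected counts. Cd44 had 28, 50 and 34 counts in the CD44 KO libraries and 3091, 10580 and 6000 in the wild type libraries. All 10 mature adipocyte markers had at least 10 counts in every library, with summed levels of 36347, 30902 and 49193 CPM (counts per 1000000 after TMM scaling) in CD44 KO and 28879, 10771 and 18154 CPM in wild type. CD44 KO replicate 2 stood apart from the other 5 libraries in the genes described here, and values that rest on it are given with and without it. In bulk tissue, fewer cells of a type and less RNA per cell cannot be told apart.

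Sequences upstream of 4 members are shown as examples from the genes that had over 1000 counts in CD44 KO replicate 2 and at most 28 in any other library. Crisp1, Lcn5 and Crisp4 were chosen because they hold a marked motif, and Defb22 because it holds neither. They are the 250 bases before the RefSeq start (GRCm38.p6) of Crisp1 on the minus strand of chromosome 17 (40319208 to 40319457), Lcn5 on the plus strand of chromosome 2 (25657702 to 25657951), Crisp4 on the minus strand of chromosome 1 (18145903 to 18146152) and Defb22 on the minus strand of chromosome 2 (152490139 to 152490388). Capitals mark TATAAA on the gene's strand, the TATA box motif, and TGTTCT on either strand, the half-site of the androgen receptor motif.
Crisp1: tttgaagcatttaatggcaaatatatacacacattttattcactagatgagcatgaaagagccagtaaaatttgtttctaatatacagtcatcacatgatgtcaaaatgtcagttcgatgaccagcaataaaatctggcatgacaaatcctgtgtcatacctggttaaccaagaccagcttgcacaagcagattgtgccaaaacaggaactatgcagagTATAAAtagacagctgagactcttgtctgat
Lcn5: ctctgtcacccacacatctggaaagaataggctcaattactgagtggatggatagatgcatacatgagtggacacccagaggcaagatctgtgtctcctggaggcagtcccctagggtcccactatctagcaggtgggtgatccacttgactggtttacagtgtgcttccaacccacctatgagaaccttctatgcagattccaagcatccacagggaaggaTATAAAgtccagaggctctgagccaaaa
Crisp4: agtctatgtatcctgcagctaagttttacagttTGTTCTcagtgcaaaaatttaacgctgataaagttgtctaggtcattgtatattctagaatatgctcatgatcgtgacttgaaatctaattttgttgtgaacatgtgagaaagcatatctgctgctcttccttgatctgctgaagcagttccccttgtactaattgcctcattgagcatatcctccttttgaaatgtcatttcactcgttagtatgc
Defb22: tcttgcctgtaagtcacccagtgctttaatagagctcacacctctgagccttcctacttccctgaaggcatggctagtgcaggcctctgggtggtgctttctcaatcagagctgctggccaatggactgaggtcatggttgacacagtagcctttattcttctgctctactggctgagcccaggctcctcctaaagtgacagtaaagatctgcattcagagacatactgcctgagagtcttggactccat
Of the 42 epididymal members with at least 10 counts in CD44 KO replicate 2, 31 have a promoter in the RefSeq table. TATAAA on the gene's strand, 50 to 16 bases before the start, stood in 3 of these 31 (9.68%), against 692 of 27025 promoters of all genes (2.56%). TATAAA on either strand, anywhere in the 250 bases, stood in 6 of the 31 (19.4%), against 3504 of all promoters (13.0%). TGTTCT on either strand stood in 10 of the 31 (32.3%), against 4369 of all promoters (16.2%). These are matches of letters and not known binding sites, and the differences in share were not tested.

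CD44 KO replicate 2 carried nearly all of the epididymal transcripts in the series. Of the 109 members 25 are known from other tissues and are described apart, which left 84. They are called epididymal members here for short, though some of them, such as Cst9 and Defb19, are known from the testis. These 84 summed to 468, 307869 and 168 counts in CD44 KO replicates 1 to 3 and to 72, 52 and 76 counts in wild type replicates 1 to 3. They made up 1.73% of all counts in CD44 KO replicate 2 (95% Wilson interval 1.72% to 1.74%), against 0.00281% or less in each of the other 5 libraries. CD44 KO replicate 2 thus held 99.73% of the counts of these genes over all libraries (99.71% to 99.75%; such intervals cover counting error only). Of the 84 genes, 42 had at least 10 counts there, 15 had 1 to 9 and 27 had 0. Over all 109 members, 23 had no count in any library and 15 had at least 1 count in every library.

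**Figure D1:**
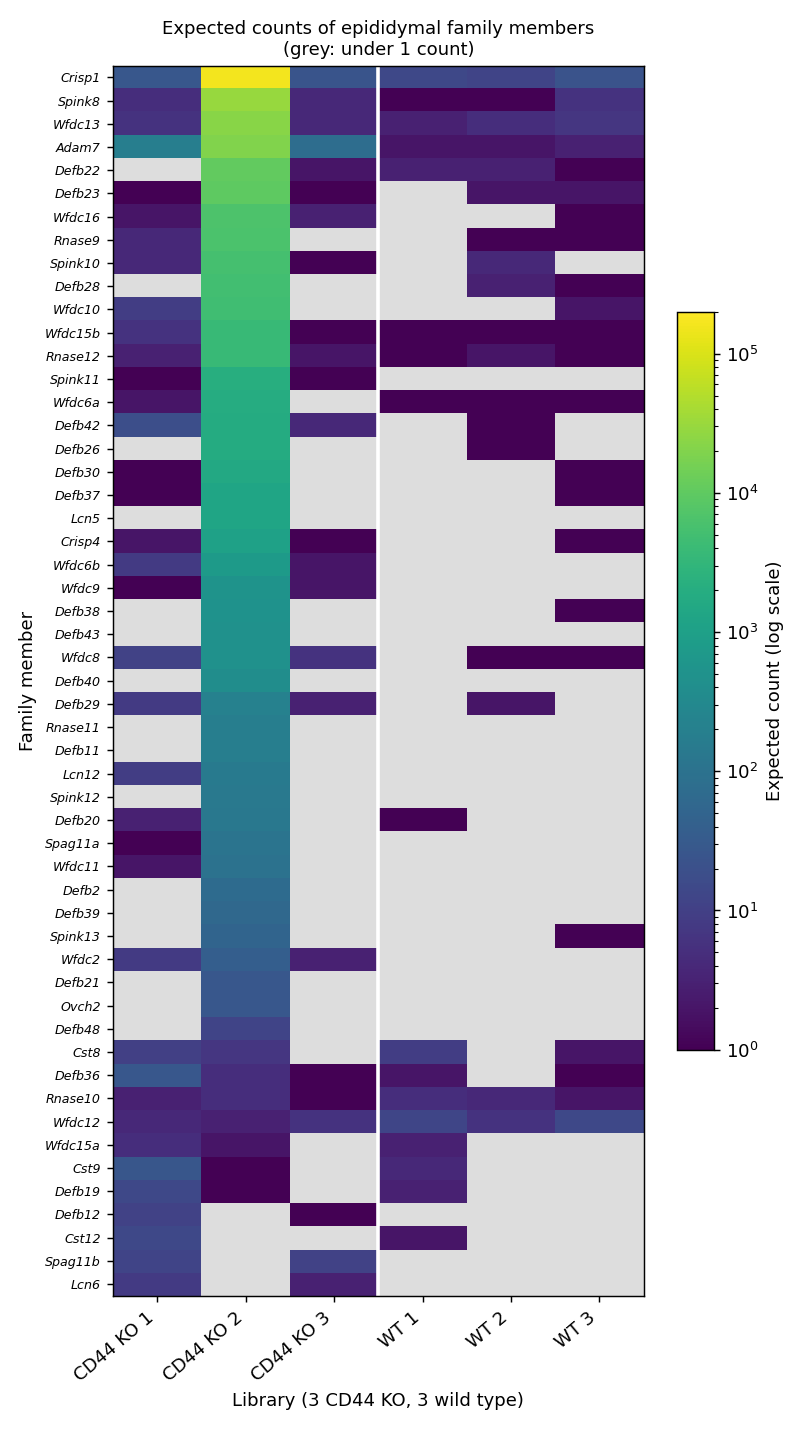
Expected counts (colour, log scale; grey under 1 count) of the 53 epididymal members with at least 10 counts over all libraries, in rows by their count in CD44 KO 2, with the 3 CD44 KO libraries left of the 3 wild type libraries. The top 42 rows are filled mainly in CD44 KO 2, while rows near the bottom, such as Cst9 and Cst12, are filled mainly in CD44 KO 1.

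Crisp1 led the families. It encodes a protein of the corpus and cauda that coats sperm and takes part in fusion with the egg, and it lies on the minus strand of chromosome 17 (ENSMUSG00000025431, 40293758 to 40319207, GRCm38). It had 28, 160218 and 24 counts in the CD44 KO libraries and 14, 12 and 23 counts in the wild type libraries. Crisp1 alone supplied 52.0% of the counts of the 84 genes in CD44 KO replicate 2 (51.9% to 52.2%), and the 5 highest genes supplied 79.5% (79.3% to 79.6%). On a scale corrected for transcript length, the authors' FPKM, Crisp1 reached 6360 FPKM in that library, above Spink8 with 3068 FPKM and Wfdc13 with 1215 FPKM. Crisp4, an epididymal relative of Crisp1 that also binds sperm, was far lower there at 53.9 FPKM, and had 2, 1103 and 1 counts in CD44 KO against 0, 0 and 1 in wild type.

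Inhibitors of proteases formed the next layer. Spink8 (chromosome 9, 109812280 to 109826633), a Kazal-type inhibitor gene, had 5, 30539 and 4 counts in CD44 KO and 1, 1 and 6 in wild type. Wfdc13 (chromosome 2, 164685107 to 164687706), of the whey acidic protein group, had 6, 23224 and 4 counts in CD44 KO and 3, 5 and 7 in wild type. In both genes CD44 KO replicates 1 and 3 lay within the wild type range, and CD44 KO replicate 2 was the only high library. Further whey acidic protein genes of chromosome 2 had the same single high library. Wfdc16 had 2, 6770 and 3 counts in CD44 KO and 0, 0 and 1 in wild type. Wfdc10 had 9, 4796 and 0 in CD44 KO and 0, 0 and 2 in wild type, and Wfdc9, on the strand opposite to it, had 1, 517 and 2 in CD44 KO and 0, 0 and 0 in wild type. Wfdc15b had 6, 3746 and 1 in CD44 KO and 1, 1 and 1 in wild type. In all 4 only CD44 KO replicate 2 was above 9 counts. The neighbours Wfdc6a and Wfdc6b behaved alike: Wfdc6a had 2, 1874 and 0 counts in CD44 KO and 1, 1 and 1 in wild type, and Wfdc6b had 8, 762 and 2 in CD44 KO and 0, 0 and 0 in wild type. Among the Kazal-type genes of chromosome 18, Spink10 had 4, 5443 and 1 counts in CD44 KO and 0, 4 and 0 in wild type, and Spink11 had 1, 2124 and 1 in CD44 KO and 0, 0 and 0 in wild type. Wfdc9 and Wfdc10, Wfdc6b and Wfdc8, and Spink10 with Spink7 and Spink13, overlap on opposite strands in GENCODE M21. Reads of such partners cannot be told apart here, because strand use is not given in the sources used here.

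Beta-defensins, small cysteine-rich antimicrobial peptides, were the largest family, and 18 of its 42 members had at least 10 counts in CD44 KO replicate 2. Defb22 (chromosome 2, 152485663 to 152490138), whose product belongs to the sugar-rich coat of mouse sperm, had 0, 10611 and 2 counts in CD44 KO and 3, 3 and 1 in wild type. Defb23 had 1, 9679 and 1 counts in CD44 KO and 0, 2 and 2 in wild type. Both lie in a row of defensin genes on chromosome 2, and 5 of their neighbours also had their highest count in CD44 KO replicate 2. Defb28 had 0, 4880 and 0 counts in CD44 KO and 0, 3 and 1 in wild type, and Defb26 had 0, 1837 and 0 in CD44 KO and 0, 1 and 0 in wild type. Defb29, Defb20 and Defb21 were lower, with 218, 132 and 28 counts in CD44 KO replicate 2 and at most 8 in any other library. Defensins of other chromosomes joined them. Defb30, on chromosome 14, had 1, 1610 and 0 counts in CD44 KO and 0, 0 and 1 in wild type. Defb37, on chromosome 8, had 1, 1330 and 0 in CD44 KO and 0, 0 and 1 in wild type, and its neighbour Defb38 had 0, 503 and 0 in CD44 KO and 0, 0 and 1 in wild type. Defb43, Defb40 and Defb11 had 483, 394 and 184 counts in CD44 KO replicate 2 and 0 in every other library. Defb42, which overlaps Defb30 on the opposite strand, was an exception in the other CD44 KO libraries, with 19, 1842 and 4 counts in CD44 KO and 0, 1 and 0 in wild type. At the low end, 14 defensin genes had no count in any library.

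Ribonucleases and lipocalins were each carried by a few members. Rnase9 (chromosome 14, 51038459 to 51041869), an epididymal member of the ribonuclease A family, had 4, 6422 and 0 counts in CD44 KO and 0, 1 and 1 in wild type. Rnase12 had 3, 3743 and 2 counts in CD44 KO and 1, 2 and 1 in wild type. Lcn5, which encodes the retinoic acid-binding lipocalin of the epididymis, had 0, 1297 and 0 counts in CD44 KO and 0, 0 and 0 in wild type. Its level was at least 483-fold higher in CD44 KO as a group against a floor of 3 counts over the wild type libraries, and it rested on CD44 KO replicate 2 entirely. A further 20 members likewise had no wild type count and at least 10 counts in CD44 KO. Of all 21, 11 had 0 counts in CD44 KO replicates 1 and 3. A count of 0 allows up to 3 counts, which is 0.157 to 0.194 CPM in these libraries.

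The genes of these families lie side by side on the chromosomes, and the counts in CD44 KO replicate 2 differed between neighbours. Members of 1 chromosome less than 1 Mb apart were treated as a group. In the Wfdc group on chromosome 2 (164176327 to 164745931), 10 of 14 members had at least 10 counts in CD44 KO replicate 2. In the Defb group on the same chromosome (152459055 to 152623053) this was 7 of 11, and Defb45 and Defb25 had 0 counts. Among the 9 lipocalin genes on chromosome 2 (25490845 to 26671282) only Lcn5 and Lcn12 reached 10 counts, with 1297 and 144, and 6 had 0. The group of 16 on chromosome 8 (18974940 to 19497775) split by position: Defb40, Defb37, Defb38 and Defb39 at its start, together with Spag11a, had 62 to 1330 counts, and 10 members had 0. In the second chromosome 8 group (20892669 to 21948850) Defb1, Defb11 and Defb2 had 495, 184 and 72 counts. Defb1 stands in the list of other tissues because kidney and airway express it.

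**Figure D2:**
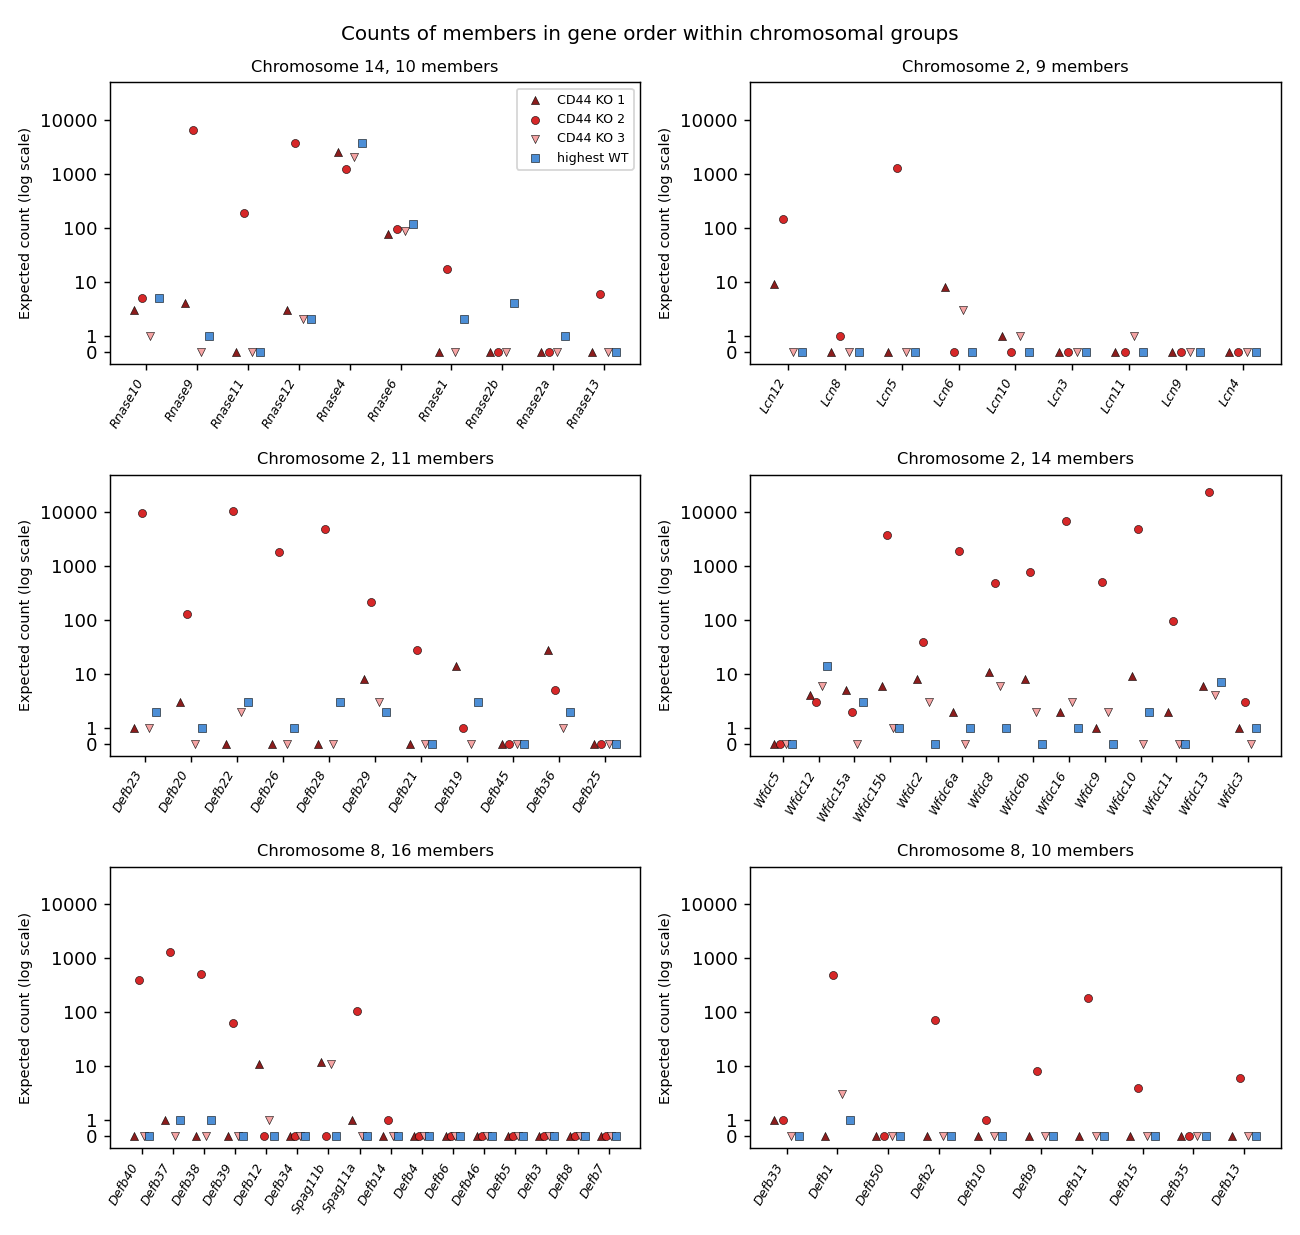
Expected counts (log scale, 0 at the bottom) of members in gene order along 6 chromosomal groups of at least 9 members, for CD44 KO 1, 2 and 3 and for the highest of the 3 wild type libraries. CD44 KO 2 is high in stretches of neighbours such as Defb23 to Defb29 and at 0 in others such as Defb4 to Defb7, and Rnase4 and Rnase6 have counts in all libraries.

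Members assigned to the proximal duct varied among themselves in their counts in CD44 KO replicate 2. Of 17 listed members of the initial segment and caput that are in the table, 7 had at least 10 counts there and 7 had 0, while both listed members of the corpus and cauda, Crisp1 and Defb22, were abundant. The proximal members present were Adam7, Rnase9, Lcn5, Crisp4, Lcn12, Spag11a and Ovch2. Ovch2, a protease-like protein that the mouse caput secretes, had only 27 counts in CD44 KO replicate 2 and 0 in every other library. Lcn8, the lipocalin of the initial segment, had 1 count in CD44 KO replicate 2 and 0 elsewhere. Rnase10, a ribonuclease-like gene of the proximal duct, had 3, 5 and 1 counts in CD44 KO and 5, 4 and 2 in wild type, so its groups overlapped. Lcn9 and Defb41 had 0 counts in all libraries, as did Adam28, the neighbour of Adam7 on chromosome 14. Outside the families, Gpx5, a glutathione peroxidase that marks the caput, also had 0 counts in all libraries. Ros1, another listed epididymis gene outside the families, had 57 counts in CD44 KO replicate 2 and 0 in every other library. The assignment of genes to regions is general knowledge of the mouse and not a measurement in these data. Only 2 members were listed for the distal regions, both abundant here and listed with earlier results known. The regions are therefore not compared.

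A smaller set of members was highest in CD44 KO replicate 1 instead. Of the 53 epididymal members with at least 10 counts over all libraries, 42 had their highest count in CD44 KO replicate 2, 9 in CD44 KO replicate 1 and 1, Wfdc12, in wild type replicate 3, while Rnase10 was tied between CD44 KO replicate 2 and wild type replicate 1. Cst9, the testatin gene of Sertoli cells in the testis, had 26, 1 and 0 counts in CD44 KO and 4, 0 and 0 in wild type. Defb36 had 28, 5 and 1 counts in CD44 KO and 2, 0 and 1 in wild type. Defb19, also known from Sertoli cells, had 14, 1 and 0 in CD44 KO and 3, 0 and 0 in wild type. Cst12 had 14, 0 and 0 counts in CD44 KO and 2, 0 and 0 in wild type, and Cst8, a cystatin of caput and germ cells, had 10, 7 and 0 in CD44 KO and 9, 0 and 2 in wild type. Cst9, Defb19, Cst12 and Cst8 thus had counts in CD44 KO replicate 1 and wild type replicate 1 and none in CD44 KO replicate 3 and wild type replicate 2. Spag11b, a defensin-like gene of the caput, had 12, 0 and 11 counts in CD44 KO and 0, 0 and 0 in wild type, at least 8.57-fold higher as a group and at least 13.0-fold without CD44 KO replicate 2. Its neighbour Spag11a showed the other pattern, with 1, 107 and 0 counts in CD44 KO and 0, 0 and 0 in wild type. Both overlap the gene model Gm45826 on their own strand, so their counts may be split with it. Lcn6 had 8, 0 and 3 counts in CD44 KO, and Defb12 had 11, 0 and 1, with 0 in wild type for both. Cst9, Defb36, Defb19, Cst12, Lcn6 and Defb12 were chosen after their values were seen.

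Other libraries held the CD44 KO replicate 2 genes at trace level. Over the 21 epididymal members with at least 1000 counts in CD44 KO replicate 2, the summed counts in CD44 KO replicates 1 and 3 were 91.0 and 41.6 for every 100000 in CD44 KO replicate 2. In wild type replicates 1 to 3 they were 8.58, 12.9 and 17.5. Adam7 alone supplied 182 and 78 of the summed counts in CD44 KO replicates 1 and 3. The median per gene was 62.1 and 14.98 in CD44 KO replicates 1 and 3. In wild type replicates 1 to 3 the median was 0, 15.6 and 19.6, so CD44 KO replicate 3 lay within the wild type range. For Crisp1 this value was 17.5 and 14.98 in CD44 KO replicates 1 and 3, against 8.74, 7.49 and 14.4 in wild type. These values are not scaled for library size. With TMM scaling those of Crisp1 were 17.3 and 16.1 in CD44 KO replicates 1 and 3, against 8.58, 6.72 and 12.5 in wild type. Adam7 differed, at 906 and 388 without scaling in CD44 KO replicates 1 and 3, against 9.96, 9.96 and 14.9 in wild type. Defb42 stood at 1032 and 217 in CD44 KO replicates 1 and 3, against 0, 54.3 and 0 in wild type. The members were therefore not in one ratio to each other across the libraries. Most of these values rest on fewer than 10 counts per gene.

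**Figure D3:**
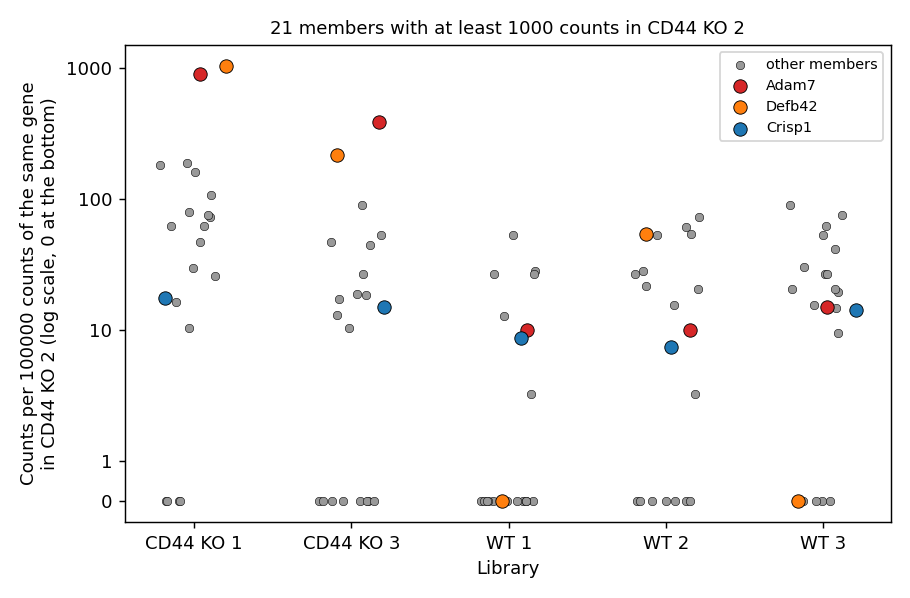
Counts in the other 5 libraries for every 100000 counts of the same gene in CD44 KO 2 (log scale, 0 drawn at the bottom), for the 21 epididymal members with at least 1000 counts there; points are genes. Crisp1 lies between 7.49 and 17.5 in all 5 libraries, while Adam7 reaches 906 and 388 in CD44 KO 1 and CD44 KO 3.

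Adam7 had more counts in each CD44 KO library than in any wild type library. It encodes a membrane protein of the ADAM family that the epididymis passes on to sperm (ENSMUSG00000022056, minus strand of chromosome 14, 68497336 to 68533741). Its counts were 182, 20088 and 78 in CD44 KO and 2, 2 and 3 in wild type, or 10.8, 1207 and 5.05 CPM in CD44 KO and 0.118, 0.108 and 0.157 CPM in wild type. CD44 KO replicate 2 was far above the other libraries, and CD44 KO replicates 1 and 3 also lay clear of wild type. Its wild type counts alone would not pass the filter on low counts, so it was tested only through the CD44 KO libraries. With all libraries the log2 fold change was 11.56 (SE 2.92) and the adjusted p of the edgeR quasi-likelihood test was 0.0774, which missed the threshold of 0.05. The fit that left out CD44 KO replicate 2 gave 5.88 (SE 0.52) with an edgeR adjusted p of 0.0257, where 0.714% of 13998 genes were called. Leaving out CD44 KO replicate 1 gave a call too (12.13, edgeR adjusted p 0.0311), in a fit that called 16.8% of 14119 genes. Over the alternatives that gave one, the adjusted p ran from 0.0257 to 0.28.

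General epithelial genes also had a higher summed level in each CD44 KO library than in any wild type library. The 12 listed ones, among them the keratin genes Krt8 and Krt18, summed to 58.8, 1141 and 23.6 CPM in CD44 KO and 4.13, 5.66 and 3.86 CPM in wild type. At least 10 counts were reached by 10, 12 and 7 of the 12 in CD44 KO replicates 1 to 3, against 3, 5 and 2 in wild type replicates 1 to 3. Krt18 had 216, 3675 and 107 counts in CD44 KO and 10, 17 and 1 in wild type, and Krt8 had 256, 3262 and 99 in CD44 KO and 12, 32 and 29 in wild type. Cldn3, a tight junction gene, had 27, 2577 and 5 counts in CD44 KO and 4, 3 and 4 in wild type. Mesothelial markers, from the lining of the fat pad that shares keratins with epithelia, summed to 55.3, 54.96 and 38.97 CPM in CD44 KO and 12.5, 14.4 and 4.33 CPM in wild type. The part of either list in the Adam7 result was not tested.

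Genes of the epididymis outside the families were also abundant in CD44 KO replicate 2. Of 18 such genes 12 had at least 10 counts there, against 4 or 5 in each of the other libraries. Cuzd1 had 350, 67663 and 123 counts in CD44 KO and 5, 18 and 12 in wild type, and all 3 CD44 KO libraries lay above wild type, as for Adam7. Cd52, a surface antigen of lymphocytes and of the distal epididymis, had 681, 26164 and 257 counts in CD44 KO and 1133, 1820 and 2243 in wild type. Npc2, a cholesterol carrier that many tissues express, had 11948, 27416 and 7821 counts in CD44 KO and 30858, 22905 and 28204 in wild type, so its groups overlapped. Of 6 clear cell genes, which mark the acid-secreting cells of the duct, 5 had at least 10 counts in CD44 KO replicate 2. Foxi1, their transcription factor, had 0, 270 and 0 counts in CD44 KO and 1, 0 and 1 in wild type. Car2, a carbonic anhydrase, had 86, 1879 and 58 counts in CD44 KO and 89, 86 and 85 in wild type, and Atp6v0d2, a proton pump subunit that macrophages share, had 3306, 142 and 48 in CD44 KO and 3395, 13320 and 10198 in wild type.

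Transcripts of neighbouring male organs differed in their spread over the libraries. Male germ cell genes summed to 77.5, 381 and 0.906 CPM in CD44 KO and 39.6, 0.970 and 9.71 CPM in wild type, with all 12 at 10 counts or more in CD44 KO replicate 2. Prm2, a sperm chromatin protein, had 273, 1435 and 2 counts in CD44 KO and 100, 1 and 33 in wild type. Smcp, of the sperm tail, had 53, 1962 and 1 counts in CD44 KO and 58, 1 and 9 in wild type, and Odf1, also of the tail, had 70, 1382 and 1 in CD44 KO and 42, 0 and 11 in wild type. The germ cell genes were thus not confined to the library with the epididymal genes, nor to one genotype. Of 13 genes of the vas deferens, seminal vesicle and prostate, 2 reached 10 counts, both in CD44 KO replicate 2. Akr1b7, an abundant product of the vas deferens, had 0, 557 and 0 counts in CD44 KO and 4, 2 and 1 in wild type, and Pate4 had 26 counts in CD44 KO replicate 2 and 0 elsewhere. Pbsn, Msmb, Svs1, Svs2, Svs3a and Svs4 had 0 in every library.

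**Figure D4:**
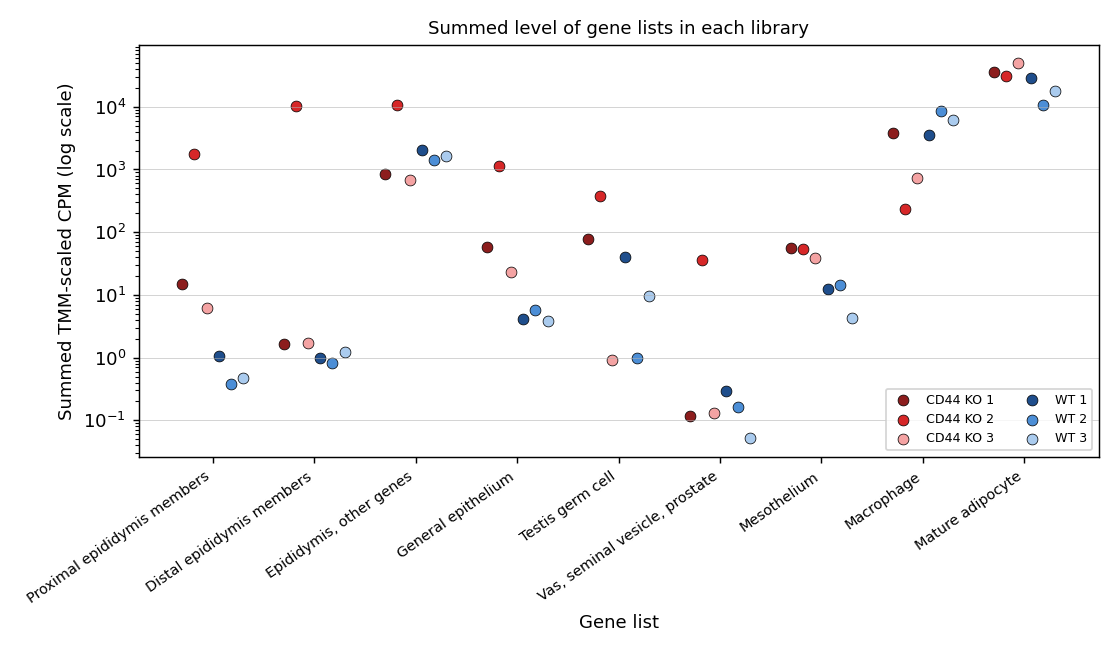
Summed TMM-scaled CPM (log scale) of 9 gene lists in each library, with the 3 CD44 KO libraries (red) left of the 3 wild type libraries (blue). The 2 distal epididymis members, Crisp1 and Defb22, stand at 10260 CPM in CD44 KO 2 and at 0.808 to 1.68 CPM in the other libraries. The mature adipocyte list is at 10771 CPM or more in all 6.

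Members known from germ cells had counts in most libraries, and none in CD44 KO replicate 3. Crisp2, a protein of the acrosome and tail of sperm, had 69, 343 and 0 counts in CD44 KO and 67, 17 and 27 in wild type. Its log2 fold change was 1.98 (SE 1.55), with an edgeR adjusted p of 0.402, and stood at -0.018 when CD44 KO replicate 2 was left out. Spink2, an inhibitor needed for the acrosome, had 21, 40 and 0 counts in CD44 KO and 28, 5 and 5 in wild type, at 0.75 on the log2 scale (SE 1.35), with an edgeR adjusted p of 0.725, and at -0.19 when CD44 KO replicate 2 was left out. In both genes the genotypes overlapped. The germ cell list, given above, was lowest in CD44 KO replicate 3 as well, at 0.906 CPM. It was nearly as low in wild type replicate 2, at 0.970 CPM, where Crisp2 and Spink2 had 17 and 5 counts. The part of this list in these values was not tested.

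The genotype comparison reached few members, because a gene needs counts in several libraries to be tested. Of the 109 members 11 passed the filter on low counts, and a gene with counts in 1 library only does not pass. None of these 11 was called by the edgeR quasi-likelihood test at an adjusted p under 0.05, where 2.62% of the 13829 genes tested were called (1.74% higher, 0.882% lower). At an unadjusted edgeR p under 0.05, 3 of the 11 were higher and 2 lower, against 16.3% and 14.7% of all genes tested. limma on FPKM called 0 of 70 members and 2.22% of 15504 genes. DESeq2 called 2 of 49 members higher and 1 lower, with 16% of 18178 genes called. These 49 leave out members without a DESeq2 p-value, among them Crisp1, Adam7, Defb22 and Lcn5. The median log2 fold change depended on the filter: it was -0.16 over the 11 members (0.03 over all genes tested), 8.22 over the 63 members with 10 counts in at least 1 library (0.07 over all genes) and 5.22 over the 86 members with any count (0.11 over all genes). The filter and CD44 KO replicate 2 set these medians, and nothing is read from them. Crisp1 stood at a log2 fold change of 11.80 (SE 3.95), with an edgeR adjusted p of 0.115. Leaving out CD44 KO replicate 2 gave 0.85 (SE 0.51) and an edgeR adjusted p of 0.333, and leaving out CD44 KO replicate 1 gave a call, at 12.38 (edgeR adjusted p 0.0468). Its means were 3209 ± 5555 CPM in CD44 KO and 0.891 ± 0.283 CPM in wild type (SD, n = 3 each).

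The tested members known from other tissues, among them fat and immune cells, had smaller fold changes than Adam7 and Crisp1. Not all members of that list passed the filter, and 2 that did not, Defb1 and Spink5, were high in CD44 KO replicate 2 only. Defb1 had 0, 495 and 3 counts in CD44 KO and 0, 0 and 1 in wild type. Spink5 had 3, 111 and 0 counts in CD44 KO and 3, 0 and 1 in wild type. Cst3, which encodes the widespread protease inhibitor cystatin C, had 12653, 6525 and 9719 counts in CD44 KO and 16558, 14578 and 22455 in wild type. Its level was 591 ± 183 CPM in CD44 KO and 978 ± 193 CPM in wild type (SD, n = 3 each), with no overlap between the groups. The log2 fold change was -0.73 (SE 0.30, edgeR adjusted p 0.161), and -0.50 without CD44 KO replicate 2 (edgeR adjusted p 0.297). Rnase4, a ribonuclease made by liver and other tissues, stood at 119 ± 41.6 CPM in CD44 KO and 182 ± 26.9 CPM in wild type (log2 difference -0.61; edgeR adjusted p 0.205). Without CD44 KO replicate 2 the log2 difference was -0.36 (edgeR adjusted p 0.330). The groups overlapped, since CD44 KO replicate 1 lay above wild type replicate 1. It overlaps Ang, a gene of the same family on the same strand, so its counts are uncertain. Rnase6, an antimicrobial ribonuclease of macrophages, was at 5.34 ± 0.671 CPM in CD44 KO and 5.98 ± 0.953 CPM in wild type, and its groups overlapped. Cst6, a cystatin of the skin, had 10, 7 and 13 counts in CD44 KO and 20, 19 and 11 in wild type (-0.58 on the log2 scale; edgeR adjusted p 0.485).

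Wfdc1, Wfdc21 and Wfdc17 had the largest fold changes among the other-tissue members tested, apart from Crisp2. Wfdc1, known from stroma and smooth muscle, had 58, 83 and 31 counts in CD44 KO and 24, 8 and 11 in wild type, with no overlap. On the log2 scale it was 2.11 higher in CD44 KO (SE 0.61), which edgeR did not call (adjusted p 0.0927) and DESeq2 did (adjusted p 0.018). Leaving out CD44 KO replicate 2 gave 1.76 (edgeR adjusted p 0.176). The 7 smooth muscle genes summed to 339, 524 and 397 CPM in CD44 KO and 520, 191 and 310 CPM in wild type, and their part in this result was not tested. Wfdc21, another whey acidic protein gene, had 258, 62 and 100 counts in CD44 KO and 1088, 197 and 614 in wild type, and its groups overlapped. It stood at -2.06 on the log2 scale (SE 0.77, edgeR adjusted p 0.137, DESeq2 adjusted p 0.0262). The value was -1.70 when CD44 KO replicate 2 was left out and -1.30 when wild type replicate 1 was left out. Wfdc17, a gene of activated macrophages, had 385, 28 and 168 counts in CD44 KO and 339, 434 and 599 in wild type (-1.07 on the log2 scale, SE 0.79; edgeR adjusted p 0.373). It stood at -0.56 when CD44 KO replicate 2 was left out. The 10 macrophage markers summed to 3882, 237 and 721 CPM in CD44 KO and 3483, 8504 and 6214 CPM in wild type, lowest in the library where Wfdc17 was lowest. Of 9 neutrophil and eosinophil genes, Ltf, which secretory epithelia also express, had 5, 1356 and 21 counts in CD44 KO and 8, 12 and 6 in wild type. The other 8 summed to 31.2, 7.15 and 40.7 CPM in CD44 KO and 81.6, 28.6 and 44.98 CPM in wild type, lowest in CD44 KO replicate 2. Their part in the Wfdc21 and Wfdc17 values was not tested.

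**Figure D5:**
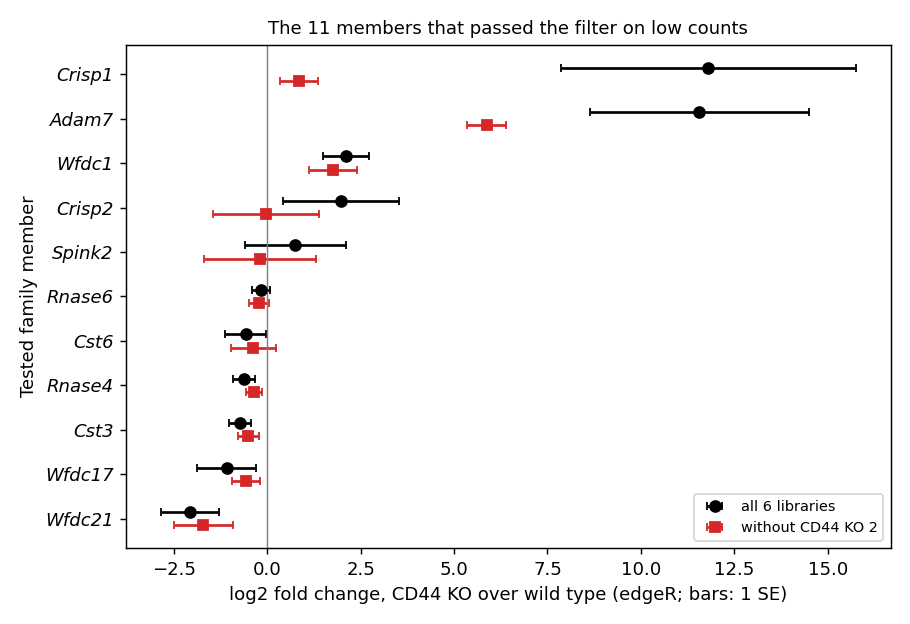
Log2 fold changes, CD44 KO over wild type, of the 11 tested members with all 6 libraries (black circles) and without CD44 KO 2 (red squares); bars are 1 SE from edgeR. Crisp1 stands at 11.80 with all libraries and 0.85 without CD44 KO 2, Adam7 at 11.56 and 5.88, and the other 9 lie between -2.06 and 2.11 with all libraries.

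Wfdc2, an epithelial secretory inhibitor abundant in the epididymis, did not pass the filter of the main edgeR fit, but DESeq2 called it. The edgeR fits with the filter of 10 counts in 1 library and with no filter took it in and called 0 members. Wfdc2 had 8, 39 and 3 counts in CD44 KO and 0, 0 and 0 in wild type. As a group it was at least 18.6-fold higher in CD44 KO, and at least 6.21-fold without CD44 KO replicate 2. The DESeq2 log2 fold change was 6.61 with an adjusted p of 0.00866, in a fit that called 16% of 18178 genes. With no wild type count, Wfdc2 was tested only through the CD44 KO libraries. In the authors' deposited table an adjusted p under 0.05 was listed for 12% of 22322 genes and for 3 members, Wfdc2 (0.0103) and Wfdc1 (0.0213), both higher in CD44 KO, and Wfdc21 (0.031), which was lower. Crisp1 and Adam7 were not among those members of the authors' deposited table. In the DESeq2 fit run here neither gene got a p-value, so their absence is not read as a lack of difference. The deposited p-values of Cst3 and Rnase4 equal those of the DESeq2 Wald test run here (0.0168 and 0.0562). The deposited calls are therefore not a source separate from DESeq2.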

How the data were processed

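The authors deposited expected counts (estimated counts per gene, not scaled) and FPKM (scaled for transcript length and library size) for 6 libraries. Per the labels, poly(A) RNA was sequenced from NEBNext Ultra libraries. Per the submitters' processing notes HISAT2, StringTie 1.3.1, RSEM and DESeq2 were used, in roles that the notes do not state. The authors' p-values for Cst3 and Rnase4 equal those of the DESeq2 Wald test run here. No source used here states the build, the annotation or the strandedness of the counting. A comparison table from the authors repeats the counts after rounding (0 genes differ by more than 0.5) and adds the authors' log2 fold changes, p-values and adjusted p-values. Positions come from GENCODE M21 (GRCm38), which holds the Ensembl identifiers of all 109 members.

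For testing, the expected counts were rounded to whole numbers and entered into edgeR 4.0.16 under R 4.3.3 (filterByExpr with the group, TMM, robust quasi-likelihood F-test, Benjamini-Hochberg over all genes tested, called under 0.05). The SE was taken as the size of the log2 fold change over the root of its F statistic. Alternatives used DESeq2 1.42.0, limma 3.58.1 on log2(FPKM + 0.1), other filters, a replicate term and each library left out. Replicates are the libraries of one genotype label.

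The members and gene lists were chosen with earlier results of these data known. Members named are the 30 of highest mean CPM, 12 fixed by name and any called; other named genes were chosen after their values were seen, except those among the 3 highest of a marker list and those with no count. One gene of a marker list is not reported here.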

Additional observations from a re-analysis of the deposited data

How the results depend on the processing

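Over all genes the calls depended on the settings. DESeq2 called 1476 higher and 1439 lower, the unfiltered edgeR fit 145 higher and 85 lower, the filter of 10 counts in 1 library 98 and 58, and the fit with the replicate block 0 and 0 (1585 and 1220 at an unadjusted p under 0.05), against 240 and 122. The block also called 0 members. The labels do not say whether same-numbered libraries are pairs. Deviations of same-numbered libraries from their group means correlated at -0.32, -0.22 and -0.02 across genes. With 3 libraries a group these deviations depend on each other, so the values cannot settle whether the libraries are paired. Leaving out each library gave 0 to 1007 genes higher and 0 to 1363 lower. Members called higher were 0 to 2 (Adam7 and Crisp1 without CD44 KO replicate 1, Adam7 without CD44 KO replicate 2), and 2 higher and 1 lower by DESeq2, which gave Adam7 and Crisp1 no adjusted p. Of 130 member fold changes under alternatives with an adjusted p 122 kept direction and call, 5 became calls and 3 turned: Crisp2 (-0.018) and Spink2 (-0.19) without CD44 KO replicate 2, and Crisp2 (-0.15) by limma. With each library left out Crisp2 ran from -0.018 to 2.84 and Spink2 from -0.19 to 2.19. The cause was not tested.

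At 1 count or more 54, 71 and 36 of the 109 members were detected in CD44 KO replicates 1 to 3 and 34, 31 and 39 in wild type replicates 1 to 3. At 5 counts these were 31, 60 and 13 in CD44 KO and 14, 13 and 14 in wild type, at 10 counts 20, 53 and 10 in CD44 KO and 12, 9 and 10 in wild type, and at 0.1 FPKM 25 in wild type replicate 3. Summed levels of all members were 985, 19033 and 798 CPM in CD44 KO and 1232, 1027 and 1447 CPM in wild type, and without members of other tissues 27.8, 18491 and 10.9 CPM in CD44 KO and 4.25, 2.80 and 3.97 CPM in wild type. Values under 10 counts are limited by depth.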

Other observations

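Among all genes, 52 had at least 1000 counts in CD44 KO replicate 2 and at least 100 times the count of the highest other library (taken as at least 3), of which 20 were members of the families and 32 were other genes. These were ranked by that ratio, so the choice fixes their pattern. The highest of the others were the serpin gene Serpina16 (3, 19510 and 2 counts in CD44 KO, 2, 1 and 4 in wild type) and the Kunitz-type inhibitor gene Spint4 (2, 17154 and 4 in CD44 KO, 2, 1 and 4 in wild type). The carboxylesterase gene Ces5a had 2, 20088 and 5 counts in CD44 KO and 2, 0 and 3 in wild type, and Serpina1f had 0, 10182 and 1 in CD44 KO and 0, 2 and 1 in wild type. Spint5, Spint3 and Pate2 had 2937, 2729 and 3840 counts in CD44 KO replicate 2 and at most 2 in any other library. Insl3, the hormone gene of testicular Leydig cells, had 100.5, 3.17 and 0 counts in CD44 KO and 26.6, 0 and 2.59 in wild type. It was chosen after its values were seen.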
